A study of Mus musculus with 9 samples.

Results

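The nuclear receptors for estrogen (*Esr1*), thyroid hormone (*Thra* and *Thrb*), vitamin D (*Vdr*) and fatty acids (*Pparg* and *Ppard*), together with their shared partner *Rxra*, were followed through an RNA-seq study of cultured mouse epithelial cells. The members were the 7 genes with these symbols, out of 23366 gene entries in the count tables, and each was read in all 9 libraries. The study grew mSGc, a spontaneously immortalized epithelial line from the submandibular salivary gland of 12 week old male C57BL/6 mice, as monolayers. There were 6 mSGc libraries, 1 each at passages (P) 2, 4, 10 and 25 for serum-free medium (SFM) and 1 each for P10 and P25 in serum-containing medium (SCM). The comparator was IMOK, immortalised oral keratinocytes of the same mouse strain, with 3 replicate libraries.

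The media differed in ligands of these receptors. SFM held dexamethasone, EGF, FGF, insulin and N2 supplement and no serum. SCM held serum, hydrocortisone, EGF, insulin, transferrin, selenite, retinoic acid and triiodothyronine, so that ligands of the thyroid hormone receptors and of the retinoic acid receptors were added to SCM. The labels speak of progenitor and differentiating medium. These were taken as SFM and SCM because freshly isolated cells were grown in SFM and P2 and P4 have a progenitor library alone; the labels do not equate the names. IMOK grew in a medium of its own, whose composition is not given in the sources used here, so cell line, medium and experiment cannot be told apart in any difference between mSGc and IMOK. No label says that the IMOK replicates are separate cultures, and no mSGc condition has a second library, so p-values measure the spread between these libraries, which may be technical.

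Nuclear receptors are transcription factors that bind a small lipid-soluble ligand in a pocket of the protein and bind DNA through a pair of zinc fingers. The vitamin D, thyroid hormone and fatty acid receptors bind DNA mostly as heterodimers with a retinoid X receptor such as the product of *Rxra*, whereas the estrogen receptor binds as a homodimer. Many of them also bind DNA without ligand, together with corepressors, and exchange these for coactivators when the hormone arrives. In stratified epithelium vitamin D signalling takes part in the balance of growth and differentiation.

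The P box is the short stretch in the zinc fingers that takes part in the choice of the DNA motif. Its coding sequence is shown for the 7 genes because the last of its codons sets *Esr1* apart from the others. It also shows how alike the counted genes are at the nucleotide level. The sequences below run 5′ to 3′ on the coding strand of the GENCODE vM1 transcripts of mm9, and capitals mark the 3 codons of the P box.
*Esr1*: tgcGAAGGCtgcaagGCTttcttt
*Thra*: tgtGAGGGCtgcaagGGCttcttt
*Thrb*: tgtGAAGGCtgcaagGGCttcttt
*Vdr*: tgtGAAGGCtgcaagGGTttcttc
*Pparg*: tgtGAAGGAtgcaagGGTtttttc
*Ppard*: tgcGAGGGGtgcaagGGCttcttc
*Rxra*: tgtGAGGGCtgcaagGGCttcttc
The stretch is exonic and coding in all 7 genes. It lies in a single exon in *Esr1* (chr10:5599750-5599773, minus strand), *Vdr* (chr15:97715227-97715250, minus strand) and *Rxra* (chr2:27597307-27597330, plus strand), and is split by an intron in *Thra* (chr11:98618323-98622198), *Thrb* (chr14:18835128-18841091), *Pparg* (chr6:115391665-115400970) and *Ppard* (chr17:28432426-28434039), all on the plus strand. The third codon in capitals is of the form GGN in 6 genes and GCT in *Esr1*. Over the 24 bases, pairs of genes differed at 1 to 5 positions, with *Thra* differing at 1 position from *Thrb* and at 1 from *Rxra*. Reads from such close stretches could be assigned to the wrong relative if an identical run were as long as a read. The longest run of identical bases was 26 between *Thra* and *Thrb*, 17 between *Ppard* and *Pparg* and 29 between *Rxra* and its relative *Rxrb*.

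Between 6237884 and 18444963 reads were counted per library, and 3 counts, the limit that a count of 0 allows, correspond to 0.163 to 0.481 CPM, the count scaled to the library total. Such limits cover counting error only. Levels are given as TPM, in which counts are divided by gene length and scaled to the same total in each library, so that they can be compared between genes. The labelled cell types were checked on markers. The summed level of 5 epithelial markers (*Krt5*, *Krt14*, *Trp63*, *Epcam* and *Cdh1*) lay between 9134 and 19411 TPM in mSGc and between 8757 and 9516 TPM in IMOK, and 6 acinar markers reached only 14.1 to 130 TPM in mSGc against 160.0 to 220 TPM in IMOK, so that markers of the secretory cells of the gland were low in the mSGc monolayers. Across the 12885 genes tested between the lines, IMOK replicate 1 held the highest and replicate 3 the lowest of the 3 IMOK values for 41.6% of genes, which is also the order for 4 of the 6 members tested.

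*Vdr* was the most abundant of the 7 receptors in all 6 mSGc libraries, and *Rxra* was the most abundant in all 3 IMOK libraries. By mean level over the mSGc libraries, *Vdr* (71.5 ± 14.2 TPM, SD, n = 6) was followed by *Ppard* (42.3 ± 10.9), *Rxra* (39.0 ± 9.54), *Thra* (22.1 ± 8.78) and *Esr1* (4.60 ± 2.90). *Thrb* (0.129 ± 0.109) and *Pparg* (0.0562 ± 0.0706) were close to the limit of detection. *Ppard* and *Rxra* lay within each other's spread and changed places at P10 in SCM, and *Thrb* and *Pparg* likewise lay within each other's spread, with *Pparg* the higher at P4 and at P25 in SFM. In IMOK the order was *Rxra* (60.7 ± 23.8 TPM, SD, n = 3), *Ppard* (41.4 ± 9.50), *Vdr* (33.1 ± 12.9), *Thra* (32.0 ± 9.19), *Pparg* (2.88 ± 0.966), *Esr1* (2.33 ± 0.617) and *Thrb* (0.0482 ± 0.0196). There neighbours from *Rxra* to *Thra* differed by less than the SD between replicates, as did *Pparg* and *Esr1*, although *Rxra* ranked 1 and *Ppard* 2 within each replicate. The 6 mSGc libraries are of different passages and media, so their SD is the spread over conditions.

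**Figure D1:**
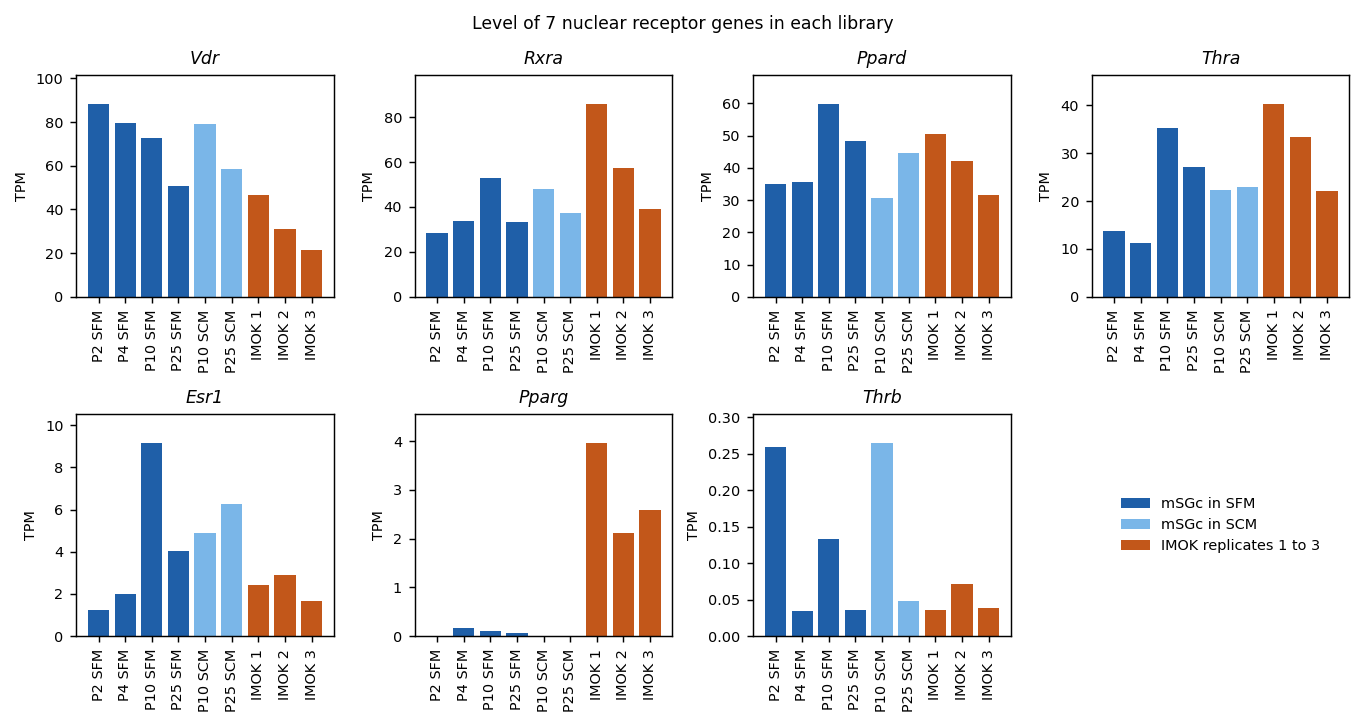
Level of each of the 7 receptor genes (TPM, vertical axis from 0, scaled separately for each gene) in the 9 libraries, with mSGc in SFM in dark blue, mSGc in SCM in light blue and the IMOK replicates in orange; each bar is 1 library. All 6 *Vdr* bars of mSGc stand above the 3 of IMOK, the *Pparg* bars of IMOK (2.104 to 3.963 TPM) stand above near-empty mSGc positions, and *Esr1* peaks at P10 in SFM (9.16 TPM).

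*Vdr*, the vitamin D receptor, was higher in mSGc than in IMOK. The gene lies on chromosome 15 (mm9 chr15:97684858-97738727, minus strand) and its counted exons span 4354 bases. Its level in SFM was 88.5 TPM at P2, 79.6 at P4, 72.6 at P10 and 51.0 at P25, and in SCM it was 79.0 TPM at P10 and 58.4 at P25. The IMOK replicates held 46.8, 31.1 and 21.3 TPM. The lowest mSGc library (P25 in SFM) therefore lay just above the highest IMOK library, and the groups did not overlap, as was so in this direction for 5.22% of the genes tested. In the fit of all mSGc against IMOK the log2 fold change was 1.35 (SE 0.23, adjusted p = 0.00471, edgeR's quasi-likelihood test), or 2.54-fold. In that comparison 14.9% of the genes tested passed an adjusted p of 0.05, 6.58% upwards and 8.3% downwards, and *Vdr* was the 1 member called higher and *Pparg* the 1 member called lower. *Pparg* passed the filter on low counts through the IMOK libraries alone, so that being tested already required it to be higher there. The *Vdr* call held in all 14 alternative settings, with log2 fold changes from 1.14 to 1.601.

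Between the media *Vdr* differed by less than the counting error of the libraries. At P10 the SCM library stood to the SFM library at a log2 ratio of -0.036 (95% exact counting interval -0.13 to 0.061), and at P25 at 0.013 (-0.11 to 0.13). These are ratios of TMM-normalised CPM between single libraries, and the intervals cover counting error only. In SFM the *Vdr* level was lower at each later passage, and P25 stood to P2 at a log2 ratio of -0.49 (counting interval -0.58 to -0.39). The fitted change per doubling of the passage number was -0.16 (SE 0.078, adjusted p = 0.434), which was not called after correction over all genes tested.

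Target genes of vitamin D signalling were mostly low or not called. Of 8 vitamin D target genes, 3 passed the filter on low counts, 1 was called higher in mSGc and none lower, with a median log2 fold change of 0.33 against 0.0023 over all genes tested. The gene called was *Cd14*, a coreceptor for bacterial lipopolysaccharide. Its level was 7.55 to 84.7 TPM in mSGc and 2.33 to 3.68 TPM in IMOK (log2 fold change 3.43, SE 0.77, adjusted p = 0.0164), and the call was lost without IMOK replicate 2 (adjusted p = 0.0752) or 3 (0.0672). *Atp2b1*, a plasma membrane calcium pump, stood at 20.9 to 94.7 TPM in mSGc and 33.3 to 52.6 TPM in IMOK, without a call (log2 fold change 0.33, adjusted p = 0.580). *Cyp24a1*, which encodes the enzyme that inactivates vitamin D and is the classical target of the receptor, reached 1.104 TPM in IMOK replicate 1 and at most 0.357 TPM in the other libraries. Of 6 genes of vitamin D uptake and activation, 2 were tested and neither was called. The higher of these by mean level, *Gc*, encoding the vitamin D binding protein, lay between 0 and 13.8 TPM in mSGc and between 0.640 and 1.24 TPM in IMOK.

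*Rxra*, the heterodimer partner, did not differ detectably between the lines. The gene lies at chr2:27532721-27618839 (mm9, plus strand), with 5267 counted bases. Its level in SFM was 28.6 TPM at P2, 33.6 at P4, 53.1 at P10 and 33.5 at P25, and in SCM it was 48.2 TPM at P10 and 37.1 at P25. The IMOK replicates, at 86.1, 57.2 and 39.0 TPM, spread widely and overlapped mSGc through replicate 3. The log2 fold change was -0.40 (SE 0.24, adjusted p = 0.297). Of the 3 retinoid X receptor genes, *Rxra* made up 43.3% to 52.3% of the summed TPM in mSGc and 54.8% to 55.6% in IMOK, which is a description of these libraries. *Rxrb* held most of the remainder, at 35.8 to 56.2 TPM in mSGc and 32.0 to 68.7 TPM in IMOK (log2 fold change -0.0016, adjusted p = 0.998). *Rxrg* stayed at or below 0.669 TPM.

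The ratio of *Vdr* to its partner *Rxra*, taken within each library with no reference to other genes, was higher in mSGc. It reuses the *Vdr* levels given above and is not separate support. The lower fitted level of *Rxra* in mSGc (log2 fold change -0.40, not called) moves it the same way. How many other genes separate the lines when set against *Rxra* was not counted. In each mSGc library *Vdr* exceeded *Rxra*, with a ratio of the TPM values of 3.10 at P2, 2.37 at P4, 1.37 at P10 and 1.52 at P25 in SFM, and of 1.64 at P10 and 1.57 at P25 in SCM. In each IMOK replicate it was the other way round, with ratios of 0.544, 0.544 and 0.546. The ratio was nearly the same in the 3 replicates, although the levels of both genes differed widely between them. For *Ppard* and *Thra* the groups overlapped. The ratio was not taken for *Pparg*, whose own levels did not overlap between the lines, or for *Thrb*. The ratio of *Ppard* to *Rxra* ran from 0.633 to 1.44 in mSGc and from 0.588 to 0.811 in IMOK, and that of *Thra* to *Rxra* from 0.335 to 0.808 and from 0.469 to 0.583.

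**Figure D2:**
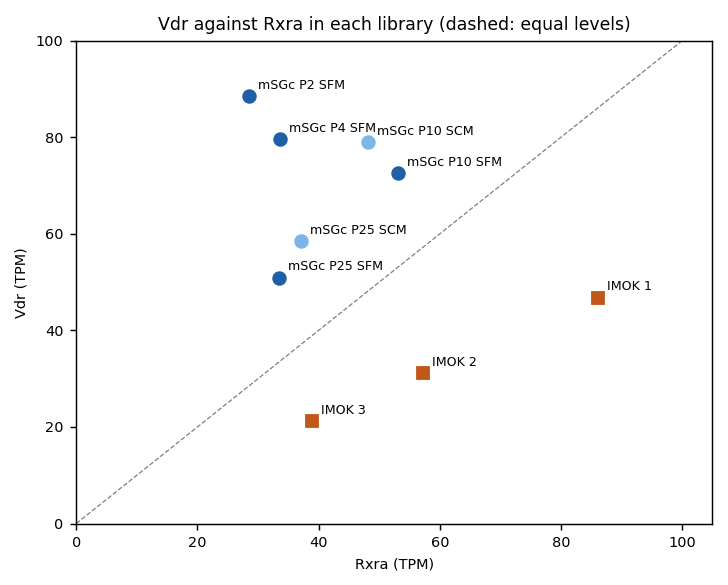
*Vdr* level against *Rxra* level (both in TPM) in each of the 9 libraries, with mSGc as circles (dark blue in SFM, light blue in SCM), IMOK as orange squares and a dashed line at equal levels. The 6 mSGc libraries lie above the line, at ratios from 1.37 to 3.10, and the 3 IMOK libraries lie below it at ratios of 0.544 to 0.546.

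Of the fatty acid receptors, *Ppard* was detected in both lines and *Pparg* almost only in IMOK. *Pparg*, the receptor known best as the master regulator of fat cells, lies at chr6:115311239-115440419 (mm9, plus strand) and has 1984 counted bases. In mSGc grown in SFM it received 0 counts at P2, 3 at P4, 1 at P10 and 1 at P25, and in both SCM libraries 0 counts. In the IMOK replicates it received 67, 36 and 41 counts, or 3.963, 2.104 and 2.578 TPM. The groups did not overlap, as was so in this direction for 17% of the genes tested, and *Pparg* was therefore low in IMOK and nearly absent from the mSGc reads. Pooled over libraries there were 5 counts among 71724816 in mSGc and 144 among 53367240 in IMOK, which is a rate 38.7 times higher in IMOK (95% exact conditional interval 16.2 to 121, counting error only). The fitted log2 fold change of mSGc over IMOK was -5.04 (SE 0.76, adjusted p = 0.00263). With so few counts the fitted value depends on the prior count of the fit. *Pparg* passed the filter on low counts through the IMOK libraries alone, so being tested already required it to be higher there. The call held in the 13 alternatives that tested the gene, which is therefore not separate support.

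In bulk RNA, fewer cells that express a gene and less RNA of it per cell cannot be told apart, and the markers of other cell types were read beside *Pparg*. Of 5 adipocyte markers, *Lep* and *Plin1* had no count in any library and the summed level was 0 to 2.82 TPM in mSGc and 0.190 to 1.27 TPM in IMOK. *Adipoq* was detected in IMOK alone, at 0.190 TPM in replicate 1 and 0.101 TPM in replicate 3, and *Fabp4* was at 1.27 TPM in IMOK replicate 2 and at up to 2.75 TPM in mSGc. The 4 leukocyte markers summed to 1.88 to 4.10 TPM in mSGc and 4.86 to 33.9 TPM in IMOK, and nearly all of it was *Cd68*, a lysosomal protein of macrophages, at 33.4, 8.74 and 4.58 TPM in the IMOK replicates. *Ptprc*, the gene of the common leukocyte antigen, was at 0 in IMOK replicate 1 and at 0.0614 and 0.0440 TPM in replicates 2 and 3, *Lyz2* did not exceed 0.444 TPM and *Cd3e* was at 0 throughout. The part of these cells in the *Pparg* result was not tested.

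*Ppard*, the fatty acid receptor that is most widely expressed in epithelia, was present in both lines at overlapping levels. It lies at chr17:28369699-28438414 (mm9, plus strand), with 3218 counted bases. In SFM it held 34.8 TPM at P2, 35.6 at P4, 59.9 at P10 and 48.2 at P25, and in SCM 30.5 TPM at P10 and 44.4 at P25. The IMOK replicates held 50.6, 42.0 and 31.6 TPM, within the range of mSGc, and the log2 fold change was 0.28 (SE 0.26, adjusted p = 0.515). *Ppard* made up 99.5% or more of the summed TPM of *Ppard* and *Pparg* in mSGc and 92.5% to 95.2% in IMOK. The remaining gene of this subfamily, *Ppara*, stood at 0.0156 to 0.315 TPM in mSGc and 0.133 to 1.57 TPM in IMOK and was not called (log2 fold change -2.72, SE 0.87, adjusted p = 0.0608), and it is named here outside the rule for named genes.

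*Ppard* was lower in SCM than in SFM at both passages, by a log2 ratio of -1.13 at P10 (counting interval -1.28 to -0.98) and of -0.30 at P25 (-0.46 to -0.15). In the fit of medium within mSGc, which takes passage along as a covariate, the log2 fold change of SCM over SFM was -0.68 (SE 0.26, adjusted p = 0.563). It was the 1 member with an unadjusted p under 0.05 in that comparison, as 1018 of the 12451 genes tested had, and did not pass the correction. No member did, where 0.0241% of the genes tested were called, and DESeq2 called 0 members as well.

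A few of the genes known as targets of the fatty acid receptors were higher in mSGc. Of 18 in the list 15 were tested, of which 3 were called higher and none lower, where 6.58% of all genes tested were called higher and 8.3% lower. A positive fold change was seen in 10 and a negative one in 5, with a median log2 fold change of 0.74 against 0.0023 over all genes. *Acadm*, an enzyme of mitochondrial fatty acid oxidation, was at 28.5 to 86.6 TPM in mSGc and 8.95 to 24.2 TPM in IMOK (log2 fold change 1.90, SE 0.37, adjusted p = 0.00847). *Plin2*, a coat protein of lipid droplets, was at 180.3 to 607 TPM and 90.1 to 117 TPM (log2 fold change 1.86, SE 0.45, adjusted p = 0.0223), and its call was lost without any 1 of the IMOK replicates (adjusted p = 0.0501 to 0.0988). *Slc25a20*, the mitochondrial carnitine carrier, overlapped between the lines at 20.004 to 28.9 TPM and 11.2 to 25.9 TPM (log2 fold change 0.85, SE 0.25, adjusted p = 0.0495) and lost its call in 11 of 14 alternatives. *Fabp5*, an epithelial fatty acid binding protein, lay between 181 and 514 TPM in mSGc and between 114 and 869 TPM in IMOK and was not called (adjusted p = 0.471).

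The thyroid hormone receptors were represented almost entirely by *Thra*, which made up 98.1% to 99.9% of the summed TPM of *Thra* and *Thrb* in the 9 libraries. *Thra* lies at chr11:98603187-98626425 (mm9, plus strand). The counted model, of 2246 bases, has the ends and the length of transcript Thra-003 (1233 coding bases), while the longer form Thra-001 (1479 coding bases) reaches to position 98630320 with a last exon that was not counted, so the values count both forms over their common exons, together with any sequence particular to Thra-003, and cannot tell them apart. In SFM the level was 13.7 TPM at P2, 11.3 at P4, 35.2 at P10 and 27.0 at P25, and in SCM 22.2 TPM at P10 and 22.97 at P25. The IMOK replicates held 40.4, 33.4 and 22.2 TPM and overlapped mSGc. The log2 fold change was -0.29 (SE 0.35, adjusted p = 0.635).

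Within mSGc, *Thra* was lowest at P2 and P4, where simple epithelial markers were higher than in the later SFM libraries. Simple epithelial markers (*Krt7*, *Krt8*, *Krt18* and *Krt19*) summed to 13036 TPM at P2, 6348 at P4, 1800.1 at P10 and 1786 at P25 in SFM and to 10561 and 6579 TPM at P10 and P25 in SCM. The 6 fibroblast markers summed to 18.6 TPM at P2 and to 0.320 to 4.36 TPM in the other mSGc libraries. The part of these markers in the passage results for *Thra* and *Esr1* was not tested. P25 stood to P2 in SFM at a log2 ratio of 1.29 (counting interval 1.03 to 1.55) and P10 to P4 at 1.55 (1.31 to 1.79). The fitted change per doubling of the passage number was 0.41 (SE 0.14, adjusted p = 0.267). *Thra* was lower in SCM, the medium with triiodothyronine, than in SFM by a log2 ratio of -0.82 at P10 (-1.04 to -0.60) and -0.42 at P25 (-0.68 to -0.16), and the fit gave -0.45 (SE 0.36, adjusted p = 0.850). Neither trend was called after correction over all genes tested.

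*Thrb* (chr14:18493474-18870602, mm9, plus strand, 6555 counted bases) received 9 counts at P2, 2 at P4, 4 at P10 and 2 at P25 in SFM, 11 and 1 counts at P10 and P25 in SCM, and 2, 4 and 2 counts in the IMOK replicates. It passed the filter in none of the 4 comparisons. Pooled, the rate in IMOK was 0.371 times that in mSGc (95% exact conditional interval 0.146 to 0.831, counting error only), with the mSGc counts coming mostly from P2 and from P10 in SCM. In no library did the level exceed 0.265 TPM.

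The genes that bring thyroid hormone into cells and convert it were few at these levels, with 4 of 9 tested against IMOK, 1 called lower and none higher (median log2 fold change -1.37 against 0.0023). The most abundant was *Slc7a5*, a subunit of an amino acid transporter that also carries thyroid hormone, at 93.3 to 479 TPM in mSGc and 182 to 238 TPM in IMOK (adjusted p = 0.583). *Slc16a10*, an aromatic amino acid and thyroid hormone transporter, was lower in mSGc, at 0.0486 to 1.08 TPM against 1.00 to 2.57 TPM (log2 fold change -2.27, SE 0.68, adjusted p = 0.0490), with overlap between the groups and a call that was lost in 8 of 13 alternatives.

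Of 8 thyroid hormone target genes, 5 were tested against IMOK and none was called, and the median log2 fold change was -0.54. An unadjusted p under 0.05 was reached by 3922 of all 12885 genes tested and by 4 of these 5 target genes. Of the 4, 3 had a negative fold change and *Hr* a positive one. The most abundant were *Atp2a2*, the calcium pump of the endoplasmic reticulum, at 103 to 152 TPM in mSGc and 155 to 252 TPM in IMOK (log2 fold change -0.54, adjusted p = 0.129), and *Me1*, the cytosolic malic enzyme, at 36.9 to 54.2 TPM and 47.2 to 92.4 TPM (-0.61, adjusted p = 0.109). *Hr*, which encodes a corepressor of the thyroid hormone and vitamin D receptors and is named outside the rule for named genes, stood at 27.9 to 129.7 TPM in mSGc and 26.5 to 33.7 TPM in IMOK (log2 fold change 1.37, SE 0.49, adjusted p = 0.0838). Between the media, all 5 had a positive fold change for SCM over SFM, with a median of 0.19 against -0.014 over all genes, and none was called.

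*Esr1*, the estrogen receptor alpha gene, varied widely among the mSGc libraries and was highest at P10 in SFM. It lies at chr10:5342780-5734495 (mm9, minus strand), with 4319 counted bases. In SFM its level was 1.22 TPM at P2, 2.01 at P4, 9.16 at P10 and 4.03 at P25, and in SCM 4.90 TPM at P10 and 6.27 at P25. The IMOK replicates held 2.42, 2.90 and 1.68 TPM, so that the mSGc libraries of P10 and P25 lay above all IMOK libraries and P2 and P4 lay among or below them. The log2 fold change of all mSGc over IMOK was 1.20 (SE 0.59, adjusted p = 0.199) and did not pass the test. *Esr1* is in the study's list of genes enriched in mSGc, which was drawn up partly on these libraries, so its direction here is not independent evidence.

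With passage, *Esr1* had the steepest fitted change of the 5 members tested, 0.66 per doubling of the passage number (SE 0.27, adjusted p = 0.353). P25 stood to P2 in SFM at a log2 ratio of 2.03 (counting interval 1.44 to 2.67) and P10 to P4 at 2.09 (1.70 to 2.49), but between P10 and P25 in SFM it stood lower, at a log2 ratio of -0.97 (-1.30 to -0.65). None of the members was called with passage, where 0.49% of the genes tested were (0.442% lower). *Esr1*, *Thra* and *Ppard* (0.26 per doubling, SE 0.094, adjusted p = 0.291) had an unadjusted p under 0.05, as did 1648 of the 12451 genes tested. With DESeq2 4 members did, as did 2032 genes in all (13426 had an adjusted p), and 0 members were called. For *Esr1*, *Thra* and *Ppard* the P10 library in SFM was the highest of mSGc. That library was the highest for 4 of the 5 members tested (80.0%), for 6 of 22 other nuclear receptors (27.3%) and for 17.7% of all genes tested.

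*Esr1* stood in opposite order between the media at the 2 passages. At P10 the SCM library was lower than the SFM library, by a log2 ratio of -1.06 (counting interval -1.39 to -0.73), and at P25 it was higher, by 0.45 (0.050 to 0.85). The fit of medium over the 6 libraries gave -0.27 (SE 0.64, adjusted p = 0.957). Of 12 estrogen receptor target genes, 8 were tested between the lines, with none called and a median log2 fold change of -0.0077. The most abundant, *Ccnd1*, encoding cyclin D1, lay between 204 and 686 TPM in mSGc and between 397 and 464 TPM in IMOK (adjusted p = 0.606), and *Areg*, encoding the growth factor amphiregulin, between 50.2 and 167 TPM and between 39.7 and 95.4 TPM (adjusted p = 0.337). In SFM *Ccnd1* stood at 686, 527, 442 and 267 TPM from P2 to P25, with a change per doubling of -0.35 (SE 0.099, adjusted p = 0.202).

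The comparison of the P10 libraries with IMOK matches the passage that the study used for this contrast and shares its 3 IMOK libraries with the comparison above. The paper chose P10 because its IMOK cells were of that passage, so the comparison of all mSGc with IMOK also mixes passages. The P10 group joins the SFM and the SCM library, so its spread includes the difference between the media. At P10, *Esr1* had a log2 fold change of 1.79 (SE 0.47, adjusted p = 0.0902), *Vdr* of 1.40 (SE 0.28, adjusted p = 0.0550) and *Pparg* of -5.49 (SE 1.105, adjusted p = 0.0550). edgeR called 0 of the 6 members tested, where 4.2% of all genes were called (2.34% higher and 1.87% lower). These 3 members had an unadjusted p under 0.05, as did 3244 of the 13018 genes tested. DESeq2 called *Esr1* (adjusted p = 0.00776), *Vdr* (0.00134) and *Pparg* (0.00317), where it called 2269 of 14274 genes. Without IMOK replicate 1 edgeR called *Vdr* (0.0108) and *Pparg* (0.0198), where it called 3416 of 12602 genes. Over all alternatives the adjusted p of *Vdr* ran from 0.00134 to 0.230, that of *Pparg* from 0.00317 to 0.197 and that of *Esr1* from 0.00776 to 0.359. Here too *Pparg* passed the filter on low counts through the IMOK libraries alone. *Thra* (0.051, adjusted p = 0.943), *Ppard* (0.34, adjusted p = 0.602) and *Rxra* (-0.057, adjusted p = 0.930) lay within the spread between libraries, and the sign of all 3 turned in at least 1 alternative.

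**Figure D3:**
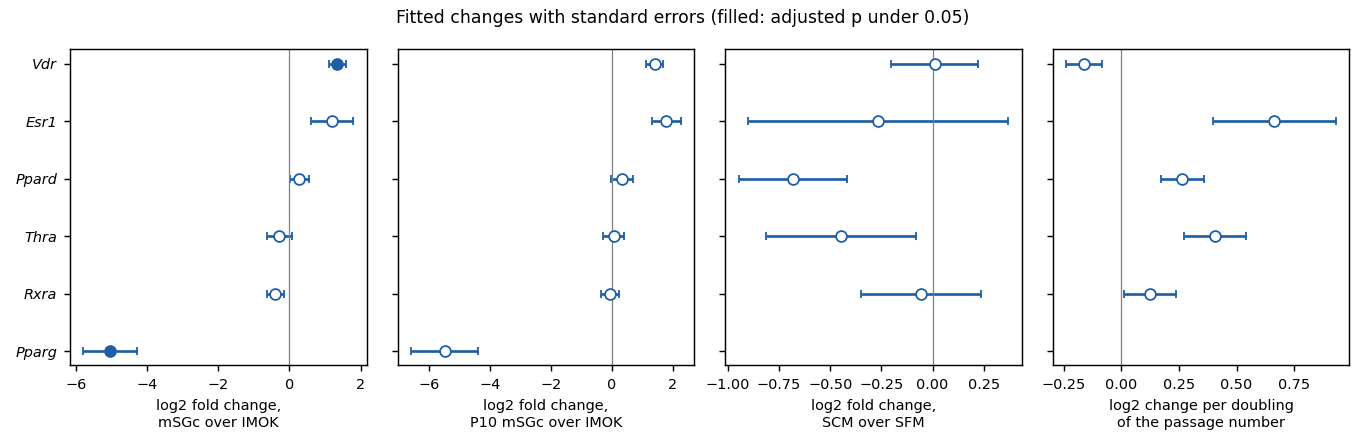
Fitted log2 fold changes (points) with their standard errors (bars) for the members tested in 4 comparisons, from left to right all mSGc over IMOK, P10 mSGc over IMOK, SCM over SFM within mSGc, and the change per doubling of the passage number; each panel has its own horizontal scale, and filled points have an adjusted p under 0.05. Filled points appear in the leftmost panel alone, for *Vdr* (1.35) and *Pparg* (-5.04); *Pparg* was not tested within mSGc and *Thrb* in no comparison.

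Among all 49 nuclear receptor genes listed, the members held high and low places. By mean level over the 9 libraries *Nr2f6* (89.8 TPM) and *Nr1h2* (68.4 TPM), which encode an orphan receptor and the liver X receptor beta, came before *Vdr* (58.7 TPM). They were followed by *Rarg* (54.4 TPM), a retinoic acid receptor, and *Esrra* (51.0 TPM), an orphan relative of the estrogen receptor, and then by *Rxra* (46.2 TPM). *Ppard* was in place 8 and *Thra* in place 9. *Vdr* ranked 2 by its median level in mSGc and 9 by that in IMOK. Of the 42 other receptor genes 23 were tested against IMOK, with 1 called higher and 1 lower and a median log2 fold change of 0.077. *Nr4a2*, an immediate early orphan receptor, was higher in mSGc, at 3.20 to 6.00 TPM against 1.998 to 3.33 TPM (log2 fold change 1.13, SE 0.31, adjusted p = 0.0378), but lost its call in 10 of 14 alternatives. *Esr2*, encoding estrogen receptor beta, was lower, at 0.0350 to 0.331 TPM against 0.816 to 1.88 TPM (log2 fold change -2.46, SE 0.63, adjusted p = 0.0269). It lost its call without any 1 of the IMOK replicates (adjusted p = 0.0628 to 0.0820). Within mSGc it did not pass the filter on low counts, so being tested here rested on the IMOK libraries, where it was higher. *Esr1* exceeded *Esr2* in every library of either line.

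**Figure D4:**
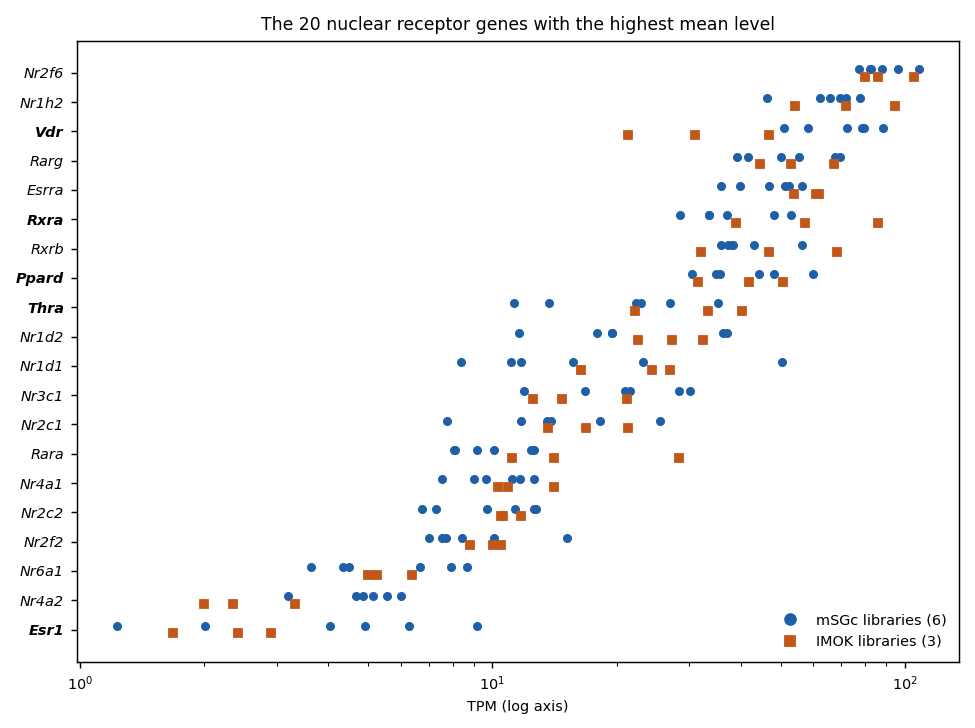
Level (TPM, log axis) of the 20 nuclear receptor genes with the highest mean over 9 libraries, ordered by that mean, with the 6 mSGc libraries as blue circles, the 3 IMOK libraries as orange squares and the members in bold. For *Vdr* the 2 groups do not overlap; for *Rxra*, *Ppard*, *Thra* and *Esr1* they do.

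All 17 nuclear receptor coregulators were tested, and their median log2 fold change between the lines was -0.096. *Med1*, the Mediator subunit that contacts liganded nuclear receptors, was the 1 called. It was lower in mSGc, at 14.1 to 20.3 TPM against 28.4 to 30.7 TPM in IMOK (log2 fold change -0.61, SE 0.13, adjusted p = 0.0139), and lost its call without IMOK replicate 2 (adjusted p = 0.0598) or 3 (0.0664). The most abundant were *Hdac3* and *Tbl1x*, both parts of the corepressor complex, at 71.5 to 110 TPM and 50.6 to 80.7 TPM in mSGc and 79.7 to 114 TPM and 81.7 to 96.9 TPM in IMOK, neither of them called (adjusted p = 0.840 and 0.359). In the P10 comparison *Nrip1*, a corepressor of liganded receptors, was called higher (log2 fold change 1.79, SE 0.30, adjusted p = 0.0405), as were *Plin2* (1.21, SE 0.19, adjusted p = 0.0358) and *Acadl* (1.25, SE 0.24, adjusted p = 0.0497) among the fatty acid receptor targets. The calls for these 3 were lost without either P10 library and without IMOK replicate 2 or 3. In all, the call was lost in 6 of 10 alternatives for *Nrip1* and for *Acadl* and in 4 of 10 for *Plin2*.

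**Figure D5:**
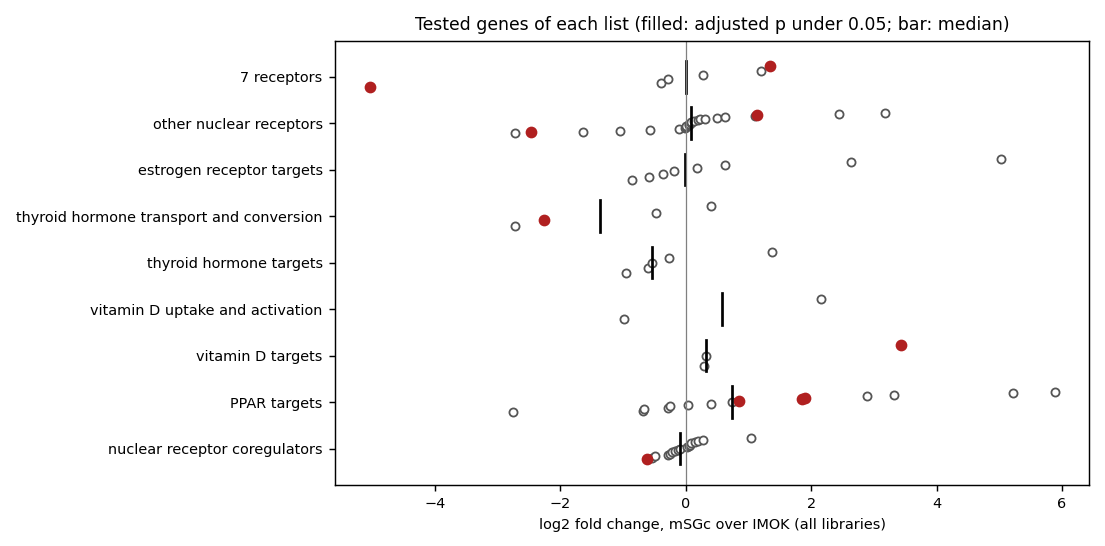
Fitted log2 fold changes of all mSGc over IMOK for the tested genes of the receptor list and of 8 related lists (1 point per gene; filled points have an adjusted p under 0.05; the black bar is the median of the list). The list of 7 receptors holds 1 filled point on each side, the PPAR targets hold 3 on the higher side, and the estrogen receptor targets and thyroid hormone targets hold none.

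The levels of the members did not move as a block. Over the 9 libraries, Pearson's r of log2(TPM + 1) was 0.80 between *Rxra* and *Thra* and 0.67 between *Ppard* and *Thra*, and -0.42 between *Vdr* and *Thra*. These values describe 9 libraries that fall into separate lines, and the libraries share depth and cell line. By the same measure among 12035 genes, the pattern of *Vdr* was most like those of *Fbxo44* (r = 0.975) and *Btg2* (0.975), that of *Rxra* most like *Xab2* (0.975) and *1700096K18Rik* (0.973), and that of *Thra* most like *Rp9* (0.973) and *1700020L24Rik* (0.968). *Esr1* was most like *Adarb1* (0.952) and *Npff* (0.941), and *Ppard* most like *Camta1* (0.897) and *Eif4ebp1* (0.891). *Btg2*, for example, lay between 60.8 and 282 TPM in mSGc and between 6.27 and 27.9 TPM in IMOK, which shows that a high r can rest on the distance between the lines. *Thrb* and *Pparg* lay under a mean of 1 TPM, and no likeness is given for them.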

How the data were processed

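RNA-seq was available for 6 mSGc and 3 IMOK libraries, and other lines and tissues were not analysed here. The deposited values are raw counts of reads per gene, made by the authors on mm9 with, per the submitters' processing notes, TopHat2 2.1.1, Bowtie2 2.2.6 and featureCounts 1.5.1; DESeq2 1.12.4 is also named there. Annotation, strand setting and the handling of multiply mapped reads are not given in the sources used here. TPM were computed from the deposited counts and gene lengths.

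edgeR 4.0.16 (R 4.3.3) quasi-likelihood tests with TMM factors, the filterByExpr filter and Benjamini-Hochberg adjustment over all tested genes were the main test, and every adjusted p comes from them unless another tool is named. SE was derived from the log2 fold change and the F statistic. Groups were all mSGc against IMOK, P10 mSGc against IMOK, and, within mSGc, medium and log2 passage in a joint fit, in which 1 library per condition leaves both resting on a pooled spread. The tests were run on simulated counts with known changes. Single libraries were compared by exact binomial intervals (95%). Alternatives were DESeq2 1.42.0, limma 3.58.1 voom, library size alone, all genes with a count, a minimum of 10 counts per library, leaving out each library, untransformed passage, SFM only, and P10 and P25 with passage as a block. An interaction of medium and passage was added after the data were seen.

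The 7 members and the gene lists, written from general knowledge, were chosen with earlier results of these data known. Named from each list were called genes (up to 3 per comparison by p) and the 2 most abundant (5 for receptors), and per member the 2 genes with the highest r. *Rxrb*, *Rxrg*, *Ppara*, *Cyp24a1*, *Hr* and *Pgr* are named outside this rule, after their values were seen. Some genes that the rule names are not reported here. Entries with date-like names (27) were kept. P box sequences and coordinates came from GENCODE vM1 transcripts on mm9. Their positions overlap the counted genes but differ at the ends for *Esr1*, *Thra*, *Vdr* and *Rxra*, so the counted gene models are not identical to that annotation.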

Additional observations from a re-analysis of the deposited data

Results flagged for a closer look

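*Esr1* moved in opposite directions between the media at the 2 passages. The log2 ratio of SCM over SFM was -1.06 at P10 (counting interval -1.39 to -0.73) and 0.45 at P25 (0.050 to 0.85), with 1 library on each side of each ratio. The difference between these 2 ratios was not tested directly, since 4 single libraries leave no residual degrees of freedom. An interaction of medium and log2 passage over all 6 mSGc libraries, added after the data were seen, was -0.32 per doubling of the passage number for *Esr1* (SE 0.80, edgeR adjusted p = 1, 2 residual degrees of freedom) and did not pass the test. In that fit 0 of 13158 genes were called, and 402 had an unadjusted p under 0.05. The P10 library in SFM, which enters the P10 ratio, was the highest mSGc library for 4 of 5 members tested, and its part in the reversal was not tested.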

How the results depend on the processing

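Pairing by replicate number was not possible, because the labels number the replicates of IMOK alone and no replicate number is shared between groups. The SFM and SCM libraries share passages P10 and P25, and an edgeR fit with passage as a block paired them by passage. In that fit no member was called for medium, and 2 of the 5 members tested had an unadjusted p under 0.05, against 1 in the main fit. Over all genes tested it was 1404 of 11938 with the block and 1018 of 12451 in the main fit. The number of genes called was 1918 between all mSGc and IMOK (DESeq2 3049; leaving out a library 738 to 1918, lowest without IMOK replicate 2 and 943 without replicate 3), 547 at P10 (DESeq2 2269, at least 10 counts 272; leaving out a library 0 to 3416, with 0 without either P10 library, 3416, 36 and 69 without IMOK replicate 1, 2 and 3), 3 for medium (DESeq2 288, no filter 36, at least 10 counts 1, voom 0, P10 and P25 with passage as a block 123; leaving out a library 0 to 58, highest without P10 in SFM) and 61 for passage (DESeq2 749, no filter 161, at least 10 counts 3, untransformed passage 126, SFM only 31; leaving out a library 0 to 329, highest without P10 in SFM). Members called lower between all mSGc and IMOK went from 1 to 0 with at least 10 counts in every library, which removes *Pparg* from the test. At P10, members called higher went from 0 to 2 and lower from 0 to 1 with DESeq2, and each from 0 to 1 without IMOK replicate 1. Signs turned for members in comparisons where no setting called them. At P10 these were *Thra* (-0.060 without TMM factors, -0.033 with voom, -0.43 without P10 in SFM, -0.15 without IMOK replicate 3), *Ppard* (-0.35 without P10 in SFM) and *Rxra* (0.080 without P10 in SCM, 0.19 without IMOK replicate 1). For medium they were *Esr1* (0.17 with voom, 0.51 without P10 in SFM), *Vdr* (-0.089 without P25 in SFM, -0.034 without P10 in SCM) and *Rxra* (0.16 without P10 in SFM, 0.082 without P25 in SCM), and for passage *Rxra* (-0.016 without P2). Leaving out a library, the ranges were -0.43 to 0.40 (*Thra*), -0.35 to 0.79 (*Ppard*) and -0.30 to 0.19 (*Rxra*) at P10, -1.12 to 0.51 (*Esr1*), -0.089 to 0.035 (*Vdr*) and -0.39 to 0.16 (*Rxra*) for medium, and -0.016 to 0.29 for *Rxra* with passage. The causes were not tested. Over single genes, 338 values kept their direction and side of the threshold, 62 lost and 5 gained a call. Without TMM factors the median of all genes shifted to -0.10 between the lines, and *Vdr* (1.22) and *Pparg* (-5.17) kept their calls. Leaving out IMOK replicate 1 took the ratio of mean *Vdr* TPM, mSGc over IMOK, from 2.16 to 2.73. Depth limits *Thrb* and, in mSGc, *Pparg*, which stand at or under 3 counts in several libraries.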

Other observations

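*Pgr*, the progesterone receptor gene and a classical target of the estrogen receptor, was chosen after its values were seen. It was at 12.9 TPM at P10 in SCM, 0.466 TPM at P2 and 0.0323 TPM at P4, and had no count in the other 6 libraries, the SCM library of P25 among them. *Esr1* at P10 in SCM was 4.90 TPM, between its values at P10 in SFM and P25 in SFM. The fit of medium gave *Pgr* an adjusted p of 0.0663, and since the level rests on 1 library no fold is given.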
